A study of Mus musculus with 9 samples.

Results

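The G1/S and DNA replication genes of LSK cells were followed across 3 groups of bone marrow libraries. They are 47 listed mouse genes, sorted by role into licensing and helicase (15 genes), polymerases and clamp (16), nucleotide supply (5), E2F factors and E cyclins (5), and fork and chromatin factors (6). All 47 were among the 14461 genes of the deposited table, and all 47 had a value of at least 1 in at least 3 libraries, which made them part of the 13771 genes tested. LSK cells, an early blood-forming population of the marrow, are lineage-negative cells with surface Sca-1, encoded by Ly6a, and c-Kit, encoded by Kit. They were sorted from parabiotic mice, which are joined surgically so that blood passes between them, and the design text describes circulating LSK cells that had moved to the marrow of an irradiated partner. The libraries were labelled circulating (3 libraries, strain C57BL/6), irradiated (3, C57BL/6) and endogenous (3, B6SJL CD45.1). The sources used here give no dose of radiation, no time after it and no age or sex of the mice. In comparisons with endogenous cells the strain label changes together with the group, and the effects of strain and group cannot be told apart. The labels do not say whether the strain given for circulating libraries is that of the sorted cells or of the mouse they were taken from. B6SJL CD45.1 differs from C57BL/6 at Ptprc, on chromosome 1, where the members Mcm3 and Prim2 also lie, at distances of 117 and 104 Mb from it.

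Before a cell copies its DNA, the origin recognition complex and the loaders Cdc6 and Cdt1 place the MCM helicase on origins, a step called licensing. At the start of S phase Cdc45 and the GINS complex turn that helicase on, and polymerases, a sliding clamp and enzymes that supply nucleotides copy the strands. Many of these genes are activated together by E2F factors once cyclin-dependent kinases have inactivated the retinoblastoma protein, and most haematopoietic stem cells in undisturbed marrow rest outside the cycle while progenitors divide often.

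Values are the deposited normalised signal, an estimated count per scaled library size, and fold changes are differences of log2(value + 1). Recovered depth was 14065855 to 27012345 estimated counts per library, so that every member was above a count of 0 in every library. Whether replicates are separate animals is not stated in the labels, and p-values therefore measure no more than how far these samples spread, which may be technical. Circulating libraries varied most: the median SD of a member on the log2 scale was 0.216 in circulating, 0.135 in irradiated and 0.165 in endogenous libraries. The gate gene Ly6a ran from 127 to 146 in circulating libraries, 159 to 202 in irradiated and 169 to 194 in endogenous libraries. Kit, with 328 to 410 in circulating libraries, 562 to 622 in irradiated and 737 to 1011 in endogenous libraries, fell in circulating against endogenous cells, with a log2 fold change of -1.20 (SE 0.13, limma adjusted p = 0.00257). Markers of other cell types and stages differed between libraries. The 15 myeloid progenitor genes, of which 9 rose in circulating and 6 in irradiated cells against endogenous cells, summed to 14410 to 42470 in circulating, 9358 to 18400 in irradiated and 3072 to 4082 in endogenous libraries. The 6 mast cell and basophil genes in the table (of 7) summed to 114, 566 and 959 in circulating replicates 1, 2 and 3, to 133 to 244 in irradiated and to 94.4 to 109 in endogenous libraries. The 9 B lineage genes summed to 109, 325 and 245 in circulating replicates 1, 2 and 3, to 87.1 to 111 in irradiated and to 77.7 to 110 in endogenous libraries, with Vpreb1 and Igll1 at a count of 0 in circulating replicate 1, as was Fcer1a of the mast cell list. The 16 stem cell genes, of which 8 fell in circulating and 2 in irradiated cells, summed to 668 to 947 in circulating, 1128 to 1263 in irradiated and 1834 to 2018 in endogenous libraries. The 6 monocyte genes in the table (of 7), of which 2 rose in circulating and 0 in irradiated cells (limma), summed to 623 to 2248 in circulating, 418 to 949 in irradiated and 179 to 319 in endogenous libraries. The 8 T and NK cell genes (of 10), of which 1 rose in circulating and 1 in irradiated cells, summed to 520.1 to 914 in circulating, 534 to 653 in irradiated and 234 to 293 in endogenous libraries. This list shares Nkg7 with the myeloid progenitor list, so the sums of these lists are not independent. The 6 dendritic cell genes (of 7) summed to 396 to 800.2 in circulating, 342 to 492 in irradiated and 657 to 901 in endogenous libraries. Of the 5 tested, 4 had positive log2 fold changes in circulating against endogenous cells (median 1.605), and 2 rose. In irradiated against endogenous cells 0 of them were called. The sum of the 3 stromal and endothelial genes in the table (of 8) was lower in every circulating library (114 to 145) and every irradiated library (135 to 171) than in any endogenous library. Sums of neutrophil, erythroid and megakaryocyte genes overlapped between circulating and endogenous libraries. In circulating against endogenous cells 2 of 8 tested B lineage, 1 of 6 mast cell and 1 of 9 erythroid genes rose. Against the same cells 2 of 10 neutrophil genes (median log2 fold change -1.145) and 1 of 3 stromal and endothelial genes fell. In irradiated cells 0 genes of these lists were called. Of all tested genes 5.33% rose and 3.3% fell in circulating, and 0.472% and 0.131% in irradiated cells.

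**Figure D1:**
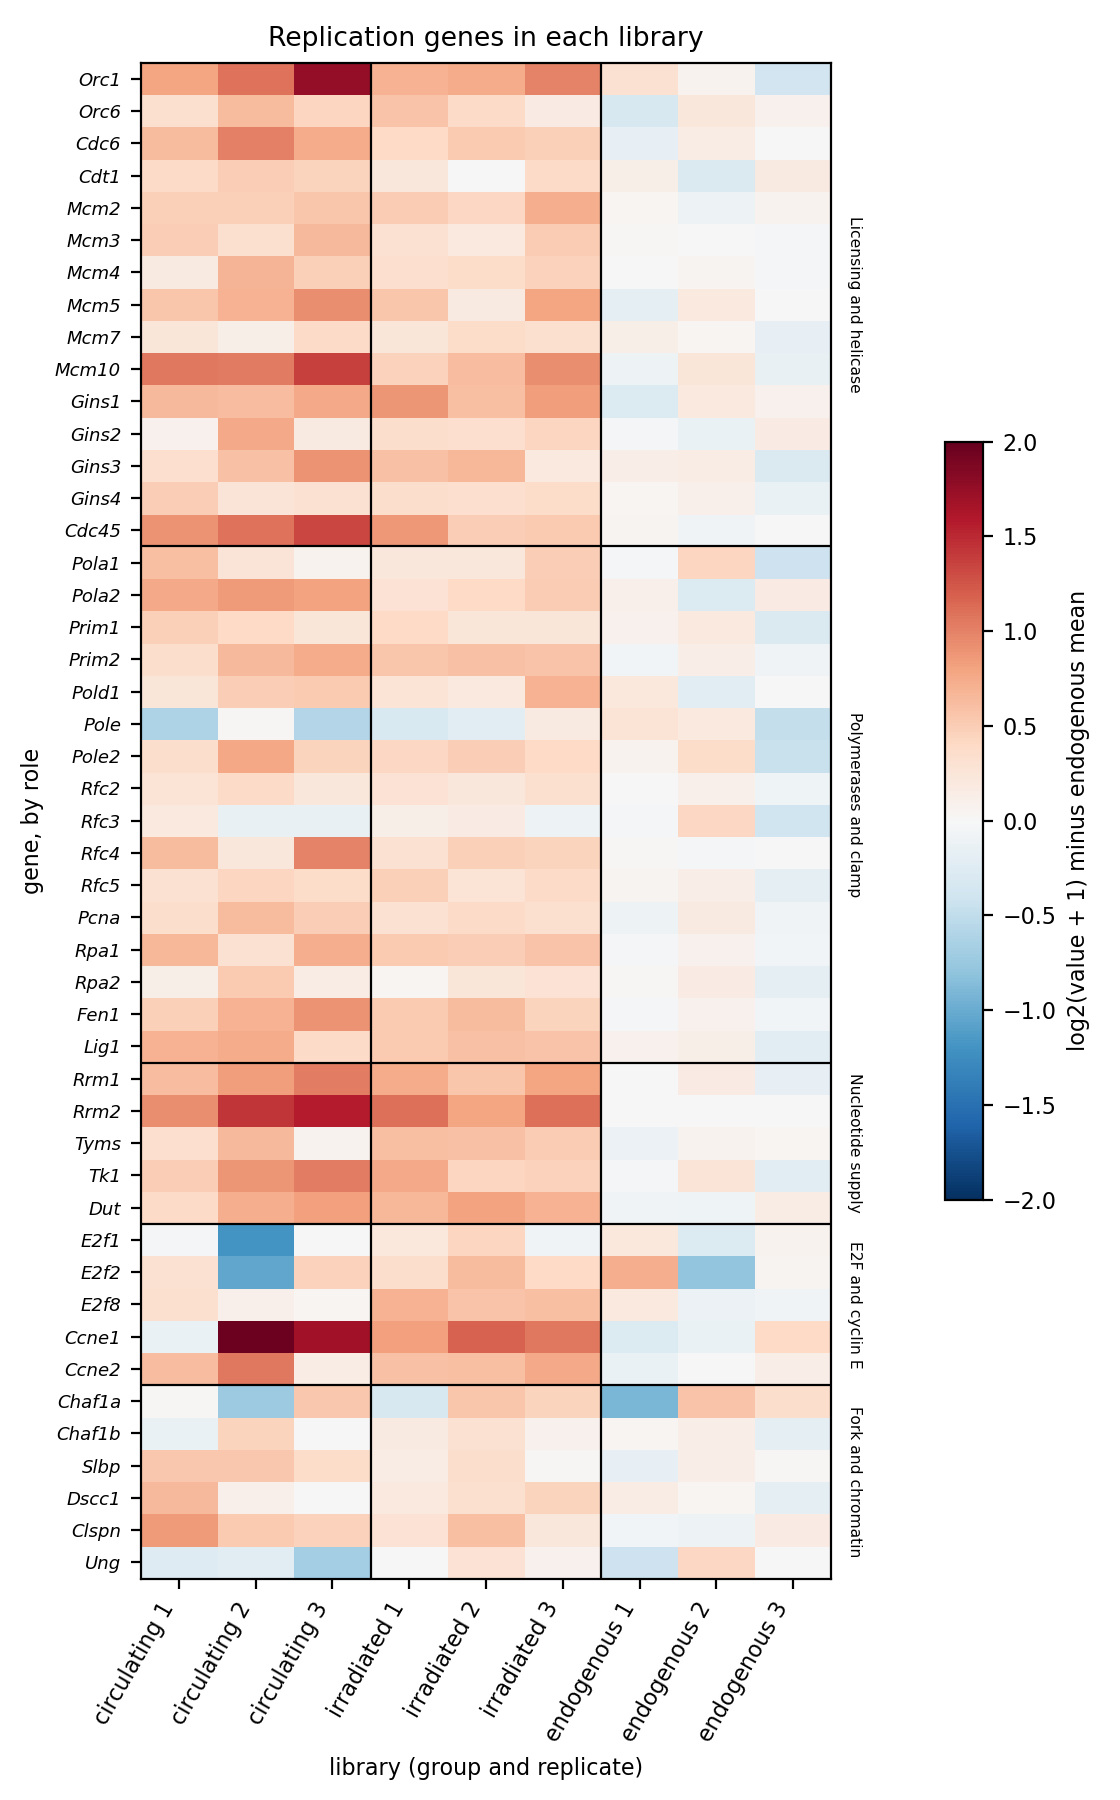
Each row is a replication gene and each column a library, grouped by role and by group. Colour gives log2(value + 1) minus the gene's mean in endogenous libraries, from -2 to 2. Most cells are red in the circulating and irradiated columns. Pole is blue in circulating replicates 1 and 3 and irradiated replicates 1 and 2, and Ung in all circulating replicates. E2f1, E2f2 and Chaf1a are blue in circulating replicate 2, and Chaf1a also in irradiated replicate 1. Paler blue cells are not listed.

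Circulating LSK cells were compared first with endogenous LSK cells. Replication genes were higher in circulating cells: 19 of 47 passed the test as higher and 0 as lower, leaving 28 that missed it, while 5.33% of all tested genes rose and 3.3% fell. The median log2 fold change of the members was 0.49, against -0.04 over all tested genes, and 41 of 47 values were positive, against 47% of all tested genes. The groups did not overlap in 32 members, all of them higher in circulating cells, a state found in 14.6% of all tested genes. By role, 8 of 15 licensing and helicase genes rose, 6 of 16 polymerase and clamp genes, 4 of 5 nucleotide supply genes, 0 of 5 genes of the E2F and cyclin E set and 1 of 6 fork and chromatin genes. In these bulk samples more cells in S phase and more RNA per cell cannot be told apart. The sums of myeloid progenitor, monocyte, mast cell and T and NK cell markers given above were also higher in circulating cells, and their part in the difference was not tested. Of the 7 tested T and NK cell genes 5 had positive and 2 negative log2 fold changes (median 1.43). In circulating replicate 1 the median member stood 0.39 log2 units above the endogenous mean, with 42 of 47 members above it. In that library the myeloid progenitor sum of 14410, the monocyte sum of 623 and the mast cell sum of 114 lay above the endogenous ranges, and the B lineage sum of 109 lay inside its range. Only 1 of the 6 mast cell genes was above its endogenous mean there, and the median of that list was -0.64 log2 units. The T and NK cell sum of 520.1 was above its endogenous range in that library as well. Of the 7 tested T and NK cell genes 3 were above their endogenous means there, with a median of -0.39 log2 units.

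Which members were called depended on the libraries. The number of members called was 9 without circulating replicate 3, 12 without irradiated replicate 1, and 5, 9 and 8 without endogenous replicates 1, 2 and 3. Sample weights left 9, and a fit of these 2 groups alone left 5. Rrm2 was called under all 21 alternatives tried, and Mcm10, Cdc45, Pola2 and Rrm1 under 20 of the 21. The least stable calls were Gins1, kept under 7 of the 21 and lost under the replicate block and voom weights, Prim2 and Slbp, kept under 9 each, and Pcna, kept under 10.

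Nucleotide supply held the largest rise. Rrm2, the small subunit of ribonucleotide reductase, which makes deoxyribonucleotides and is limiting in S phase, was 355, 503 and 553 in circulating, 399.7, 324 and 402 in irradiated and 185, 188 and 187 in endogenous libraries. The endogenous libraries lay within 3 units of each other, and every circulating and irradiated library was above them. Rrm2 rose when circulating were set against endogenous libraries (log2 fold change 1.31 with SE 0.16, limma adjusted p = 0.00274). Rrm1, the large subunit, was 755, 879.8 and 998 in circulating, 825, 725 and 849 in irradiated and 494, 552 and 437 in endogenous libraries, and the circulating and endogenous libraries did not overlap (log2 fold change 0.83 with SE 0.13, limma adjusted p = 0.0079). Tk1, the thymidine kinase of the salvage route, was 109, 143 and 159 in circulating, 132, 105 and 107 in irradiated and 75.8, 92.9 and 66.5 in endogenous libraries, and rose with a log2 fold change of 0.80 (limma adjusted p = 0.028). Dut, which removes dUTP before it can be built into DNA, was 163, 209 and 221 in circulating, 199, 219.5 and 203 in irradiated and 119.8, 118 and 139 in endogenous libraries, and rose by 0.64 log2 units (limma adjusted p = 0.0232). Tyms, which makes thymidylate, was the member of this set that did not pass, with 204, 254 and 169.6 in circulating, 246, 245 and 231 in irradiated and 150.0, 169.6 and 167 in endogenous libraries (log2 fold change 0.35 with SE 0.15, limma adjusted p = 0.16). Its highest value was circulating replicate 2, and circulating replicate 3 reached only the top of the endogenous range.

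**Figure D2:**
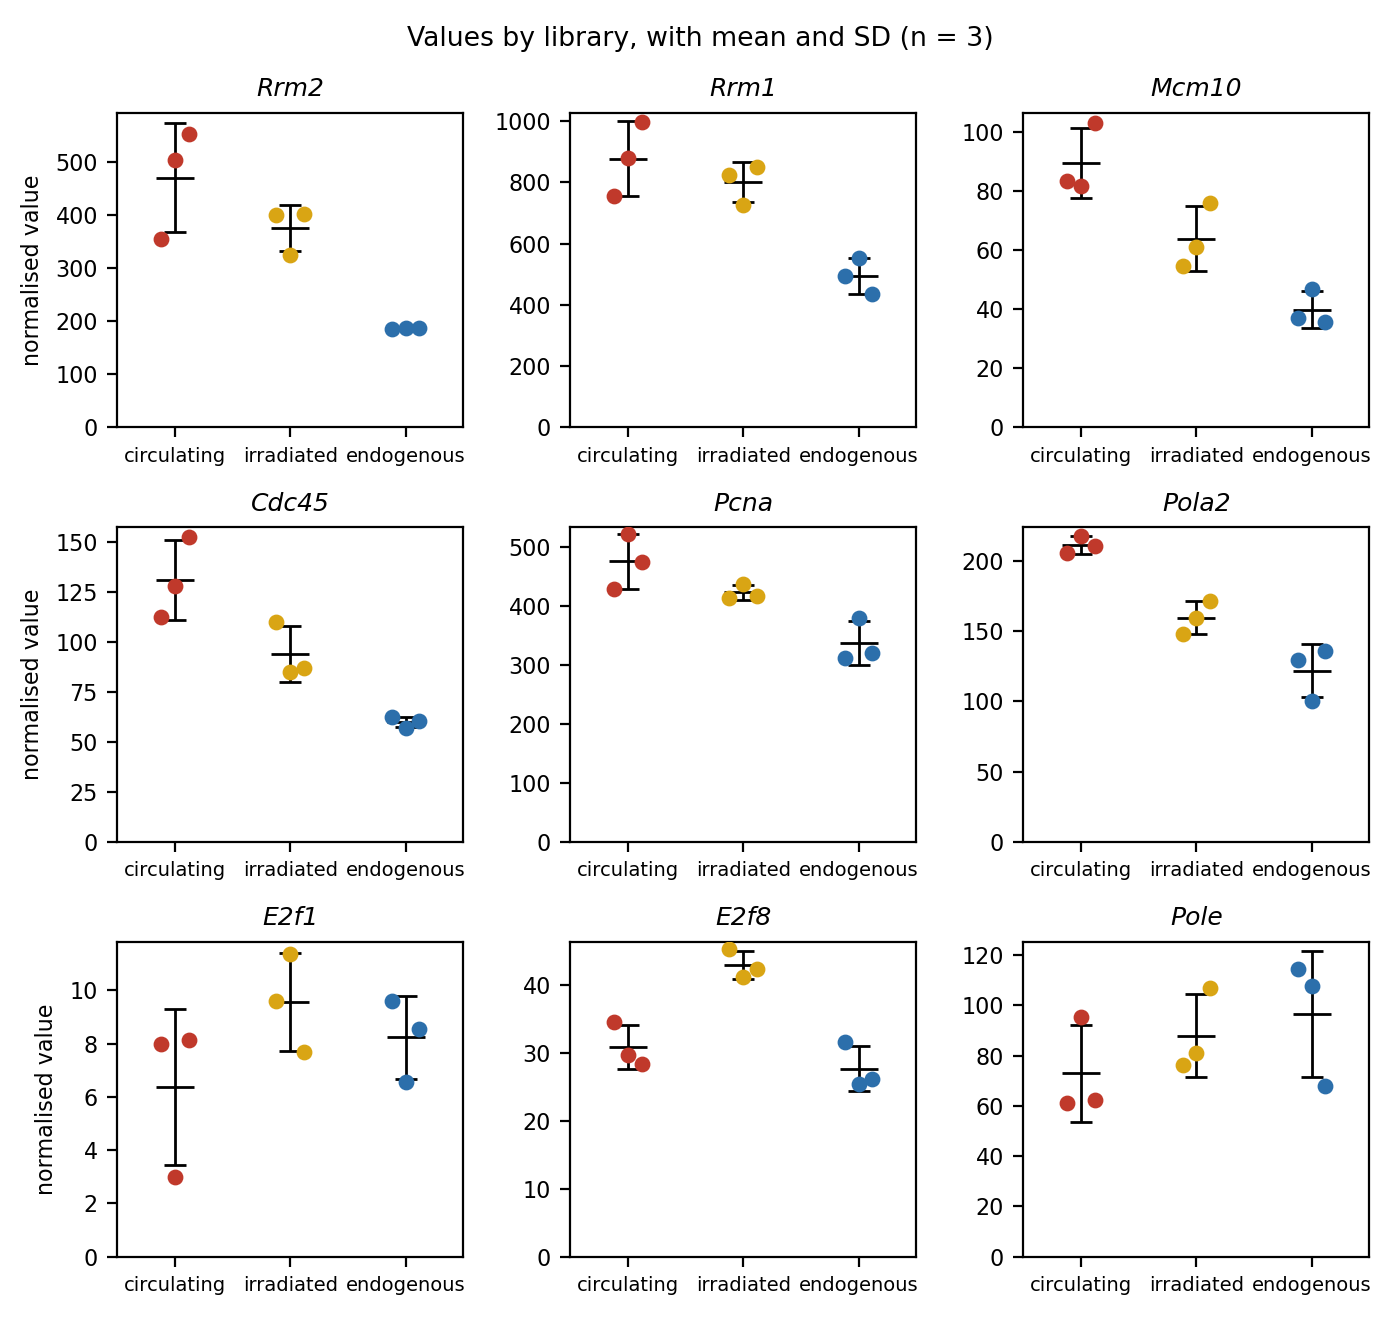
Normalised values of 9 members in each library (points), with mean and SD of each group (bars, n = 3), on axes that start at 0. Rrm2, Rrm1, Mcm10, Cdc45, Pcna and Pola2 are higher in every circulating than in every endogenous library, E2f1 and Pole overlap between all groups, and E2f8 is highest in the irradiated libraries.

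Among licensing and helicase genes the largest rises were in Orc1, Mcm10 and Cdc45. Mcm10, which helps the loaded helicase start to unwind, was 83.3, 81.9 and 103 in circulating, 54.5, 61.0 and 76.1 in irradiated and 36.9, 46.9 and 35.6 in endogenous libraries (log2 fold change 1.15 with SE 0.19, limma adjusted p = 0.00828). Cdc45, part of the active helicase, was 113, 128 and 153 in circulating, 110.0, 85.0 and 87.3 in irradiated and 62.5, 57.3 and 60.6 in endogenous libraries (log2 fold change 1.10 with SE 0.16, limma adjusted p = 0.00613). For both genes all circulating libraries were above all irradiated libraries, and these above all endogenous libraries. Orc1, the largest subunit of the origin recognition complex, was 32.4, 40.1 and 64.5 in circulating, 30.2, 31.2 and 37.3 in irradiated and 23.0, 19.3 and 13.8 in endogenous libraries, with circulating replicate 3 well above every other library and the circulating and endogenous libraries apart (log2 fold change 1.21 with SE 0.28, limma adjusted p = 0.0284). The loader Cdc6 was 133, 173 and 144 in circulating, 113, 124 and 119.5 in irradiated and 76.4, 95.2 and 85.4 in endogenous libraries and rose by 0.80 log2 units (limma adjusted p = 0.0119). Its partner Cdt1 averaged 84.2 ± 3.17 in circulating and 62.5 ± 10.5 in endogenous cells (SD, n = 3 each) and did not pass (limma adjusted p = 0.131), although the groups did not overlap.

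The 5 subunits of the MCM ring that were followed changed by less. Mcm5 was 477, 524 and 617 in circulating, 479.5, 369 and 565 in irradiated and 283, 372 and 326 in endogenous libraries (log2 fold change 0.72 with SE 0.17, limma adjusted p = 0.0284). Mcm2 was 475, 475 and 501 in circulating, 483, 456 and 567 in irradiated and 349, 319 and 356 in endogenous libraries, and all circulating and irradiated libraries were above all endogenous libraries (log2 fold change 0.50 with SE 0.11, limma adjusted p = 0.0233). Mcm3 was 682, 605 and 759 in circulating, 598, 551 and 691 in irradiated and 490.5, 488 and 472 in endogenous libraries and also rose (log2 fold change 0.49, limma adjusted p = 0.0315). Mcm4, at 456 ± 76.4 in circulating cells against 332 ± 9.81 in endogenous ones, lay just outside the threshold (log2 fold change 0.44, limma adjusted p = 0.0531), and these libraries did not overlap between the groups. Mcm7 was 609, 558 and 676 in circulating, 611, 667 and 642 in irradiated and 560.0, 531 and 462 in endogenous libraries, with endogenous replicate 1 just above the lowest circulating library (log2 fold change 0.25, limma adjusted p = 0.187). Of the 4 GINS genes, Gins1 rose, with 56.9, 55.3 and 61.2 in circulating, 66.5, 54.7 and 64.7 in irradiated and 29.2, 41.0 and 38.0 in endogenous libraries (log2 fold change 0.68, limma adjusted p = 0.0432), and Gins2, Gins3 and Gins4 had log2 fold changes of 0.34, 0.61 and 0.35 that did not pass. Gse1 covers 67.3% of the annotated exonic bases of Gins2, so reads of the pair may be divided with error in this chemistry, which does not mark strand. Orc6 had a log2 fold change of 0.46 and did not pass either.

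The promoters of the members were searched for words bound by E2F factors, because the members are known as their targets. Of 47 members, 38 had an entry in the RefSeq promoter table (GRCm38.p6), which holds 250 bases before and 50 after a gene's start. Mcm4, Gins1, Gins2, Gins4, Prim2, Pole, Rfc2, Ccne2 and Dscc1 had none. The words TTTCCCGC, TTTCGCGC, TTTGCCGC and TTTGGCGC, read on both strands, were present in 14 of 38 members (36.8%), against 2.6% of 27025 genes in the table. They were found in 7 of 11 licensing and helicase genes, 5 of 13 polymerase and clamp genes, 0 of 5 nucleotide supply genes, 1 of 4 genes of the E2F and cyclin E set and 1 of 5 fork and chromatin genes. Among members called in circulating against endogenous cells 5 of 17 held a match, and among the others 9 of 21. The word CCAAT, read on both strands, was present in 22 of 38 members (57.9%), against 41.1% of all genes. No match says only that these letters are not in this window. The 5 called members with a match are shown because they carry both the rise and the word. Capitals mark the E2F words, all else is in lower case, and each sequence runs 5′ to 3′ on the gene's strand. Orc1 lies at chr4:108579204-108579503 on the plus strand, Cdc6 at chr11:98907901-98908200 (plus), Mcm3 at chr1:20820263-20820562 (minus), Mcm5 at chr8:75109259-75109558 (plus) and Lig1 at chr7:13278576-13278875 (plus). A gene counted as holding a word if any of its entries did. Lig1 has 3 entries for different starts, and the one shown was taken because it alone holds a match. Orc1, Mcm3 and Mcm5 were added after their values were seen.
Orc1: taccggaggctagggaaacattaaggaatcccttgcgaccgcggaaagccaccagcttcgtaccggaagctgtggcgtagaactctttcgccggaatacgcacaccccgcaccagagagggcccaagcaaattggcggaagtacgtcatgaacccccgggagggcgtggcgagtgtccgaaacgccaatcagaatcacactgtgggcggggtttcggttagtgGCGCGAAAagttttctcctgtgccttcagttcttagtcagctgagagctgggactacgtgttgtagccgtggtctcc
Cdc6: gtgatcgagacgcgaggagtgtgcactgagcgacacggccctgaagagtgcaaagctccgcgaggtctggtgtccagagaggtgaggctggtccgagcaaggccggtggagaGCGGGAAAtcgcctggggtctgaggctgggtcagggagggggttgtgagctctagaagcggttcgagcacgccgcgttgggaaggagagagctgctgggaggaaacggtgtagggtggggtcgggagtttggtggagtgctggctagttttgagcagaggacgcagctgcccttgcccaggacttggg
Mcm3: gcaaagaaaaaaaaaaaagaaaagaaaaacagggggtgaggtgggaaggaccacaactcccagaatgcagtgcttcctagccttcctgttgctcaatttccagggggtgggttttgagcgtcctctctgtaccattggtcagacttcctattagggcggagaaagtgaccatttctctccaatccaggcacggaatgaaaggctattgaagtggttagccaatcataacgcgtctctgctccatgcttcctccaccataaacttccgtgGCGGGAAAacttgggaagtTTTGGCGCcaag
Mcm5: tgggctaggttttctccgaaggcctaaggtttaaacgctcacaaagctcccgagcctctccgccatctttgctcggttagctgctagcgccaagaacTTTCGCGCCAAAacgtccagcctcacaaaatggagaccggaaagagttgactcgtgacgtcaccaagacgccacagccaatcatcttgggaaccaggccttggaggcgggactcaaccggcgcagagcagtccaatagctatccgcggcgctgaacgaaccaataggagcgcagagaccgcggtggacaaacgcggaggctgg
Lig1: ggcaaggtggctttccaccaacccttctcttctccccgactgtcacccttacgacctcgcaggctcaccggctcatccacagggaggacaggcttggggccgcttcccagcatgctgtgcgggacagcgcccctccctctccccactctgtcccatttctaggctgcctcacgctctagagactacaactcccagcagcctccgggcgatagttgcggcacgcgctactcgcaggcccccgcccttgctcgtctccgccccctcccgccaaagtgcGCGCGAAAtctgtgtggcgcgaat
In Mcm5 the words of either strand overlap, TTTCGCGC and GCGCCAAA, and begin 153 and 149 bases before the start. In Mcm3 they begin 19 and 38 bases after it, in Lig1 26 bases after it, in Orc1 27 bases before it and in Cdc6 138 bases before it.

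Of the polymerase and clamp genes, Pola2, Prim2, Fen1, Lig1, Pcna and Rpa1 rose. Pola2, the accessory subunit of the primer-making polymerase alpha, was 205, 218 and 210.5 in circulating, 148, 159 and 171 in irradiated and 129, 100.2 and 136 in endogenous libraries, and the groups stood in that order without overlap (log2 fold change 0.80 with SE 0.14, limma adjusted p = 0.0105). The catalytic subunit Pola1 was 186, 145 and 127 in circulating, 143, 142 and 171 in irradiated and 119.7, 164 and 91.4 in endogenous libraries, with endogenous libraries spread across the range of the others (log2 fold change 0.31, limma adjusted p = 0.376). Prim2, a primase subunit, was 84.8, 104 and 112 in circulating, 98.2, 99.9 and 99.8 in irradiated and 64.2, 72.8 and 63.1 in endogenous libraries and rose (log2 fold change 0.58, limma adjusted p = 0.0386). The flap nuclease Fen1 was 235, 276 and 316 in circulating, 244, 262 and 231 in irradiated and 166, 180.4 and 162 in endogenous libraries (log2 fold change 0.69 with SE 0.13, limma adjusted p = 0.0139). The antisense gene Gm10143 covers 78.8% of the annotated exonic bases of Fen1 and averaged 3.58 in circulating and 1.37 in endogenous cells. Without strand, reads that lie wholly in the shared bases cannot be told apart. Lig1, the ligase that joins Okazaki fragments, was 225, 233 and 182 in circulating, 201, 209 and 206 in irradiated and 148, 152 and 120.1 in endogenous libraries and rose by 0.60 log2 units (limma adjusted p = 0.0282). The sliding clamp Pcna was 429.7, 523 and 475 in circulating, 414, 438 and 418 in irradiated and 313, 379.5 and 319.8 in endogenous libraries (log2 fold change 0.50 with SE 0.12, limma adjusted p = 0.029). Rpa1, the large subunit of the single-strand binding protein, was 342, 267 and 356 in circulating, 309.8, 304 and 319 in irradiated and 211, 228 and 208 in endogenous libraries, with circulating replicate 2 the lowest of its group and still above every endogenous library, and it rose (log2 fold change 0.57, limma adjusted p = 0.0247), while its partner Rpa2 had a log2 fold change of 0.26 that did not pass.

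The other 10 polymerase and clamp genes did not pass. Pole, the catalytic subunit of polymerase epsilon, was 61.3, 95.3 and 62.3 in circulating, 76.2, 80.8 and 107 in irradiated and 114, 108 and 67.8 in endogenous libraries. The circulating mean of Pole was the lower, but the groups overlapped and the interval of the difference included 0 (log2 fold change -0.40, 95% interval -0.93 to 0.14, limma adjusted p = 0.324). Its partner subunit Pole2 had a log2 fold change of 0.52 and the catalytic subunit of polymerase delta, Pold1, of 0.42, and neither passed. Of the clamp loader subunits, Rfc4 (log2 fold change 0.61), Rfc5 (0.37) and Rfc2 (0.30) were higher in every circulating than in every endogenous library without passing the test (limma adjusted p = 0.0612, 0.0795 and 0.0938). Rfc2 was 402, 434 and 389.7 in circulating, 406, 388 and 413 in irradiated and 329, 354 and 314 in endogenous libraries. Rfc3, at 112, 88.1 and 88.3 in circulating against 96.3, 129.9 and 74.1 in endogenous libraries, overlapped (log2 fold change -0.03, limma adjusted p = 0.948).

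No gene of the E2F and cyclin E set passed the test. E2f1, an activator, was 7.98, 2.99 and 8.14 in circulating, 9.59, 11.4 and 7.68 in irradiated and 9.59, 6.54 and 8.55 in endogenous libraries, with its lowest value in circulating replicate 2 (log2 fold change -0.41 with SE 0.38, limma adjusted p = 0.531). E2f2, a second activator, was 5.63, 1.61 and 6.37 in circulating, 5.82, 7.35 and 6.09 in irradiated and 7.92, 2.10 and 4.59 in endogenous libraries, with its lowest values in circulating replicate 2 and endogenous replicate 2 (log2 fold change -0.09 with SE 0.49, limma adjusted p = 0.928). At these levels the 95% intervals were wide, -1.25 to 0.44 for E2f1 and -1.17 to 0.99 for E2f2 on the log2 scale, and a rise as large as the members' median was inside the second. E2f8, a repressor that is itself switched on in S phase, was 34.6, 29.7 and 28.4 in circulating, 45.3, 41.2 and 42.4 in irradiated and 31.6, 25.4 and 26.2 in endogenous libraries (log2 fold change 0.15 with SE 0.19, limma adjusted p = 0.64). Ccne1, which encodes a cyclin of the G1/S transition, was 3.23, 17.0 and 13.9 in circulating, 7.15, 9.54 and 8.63 in irradiated and 2.82, 3.24 and 5.12 in endogenous libraries. Circulating replicate 1 lay inside its endogenous range while replicates 2 and 3 were above every other library, and the difference did not pass (log2 fold change 1.17 with SE 0.50, limma adjusted p = 0.163). Ccne2, the related cyclin gene, was 77.4, 105 and 55.7 in circulating, 75.7, 76.4 and 85.0 in irradiated and 45.8, 49.7 and 55.1 in endogenous libraries, without overlap and without passing (log2 fold change 0.61, limma adjusted p = 0.0989).

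Of the fork and chromatin factors, Slbp rose. It encodes the protein that binds histone mRNA, and it was 535, 536 and 472 in circulating, 409, 469 and 374 in irradiated and 328, 404 and 373 in endogenous libraries (log2 fold change 0.48 with SE 0.12, limma adjusted p = 0.0386). Clspn, which encodes the checkpoint adaptor claspin, averaged 38.2 ± 6.07 in circulating and 24.5 ± 2.52 in endogenous cells, without overlap and without passing (log2 fold change 0.61, limma adjusted p = 0.0934). Chaf1a and Chaf1b, which encode subunits of the CAF-1 histone chaperone, had log2 fold changes of -0.05 and 0.11, and Dscc1, part of an alternative clamp loader, of 0.25. Chaf1b was 141, 209.8 and 155 in circulating, 175, 190.0 and 164 in irradiated and 159, 169 and 136 in endogenous libraries, and the groups overlapped. Ubxn6 covers 52.5% of the exonic bases of Chaf1a, whose values ran from 10.3 to 30.6 within the endogenous group. Ung, a glycosylase that takes uracil out of DNA, was 11.4, 11.7 and 8.21 in circulating, 13.9, 16.9 and 14.7 in irradiated and 10.1, 18.6 and 13.7 in endogenous libraries (log2 fold change -0.38 with SE 0.30, limma adjusted p = 0.443).

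**Figure D3:**
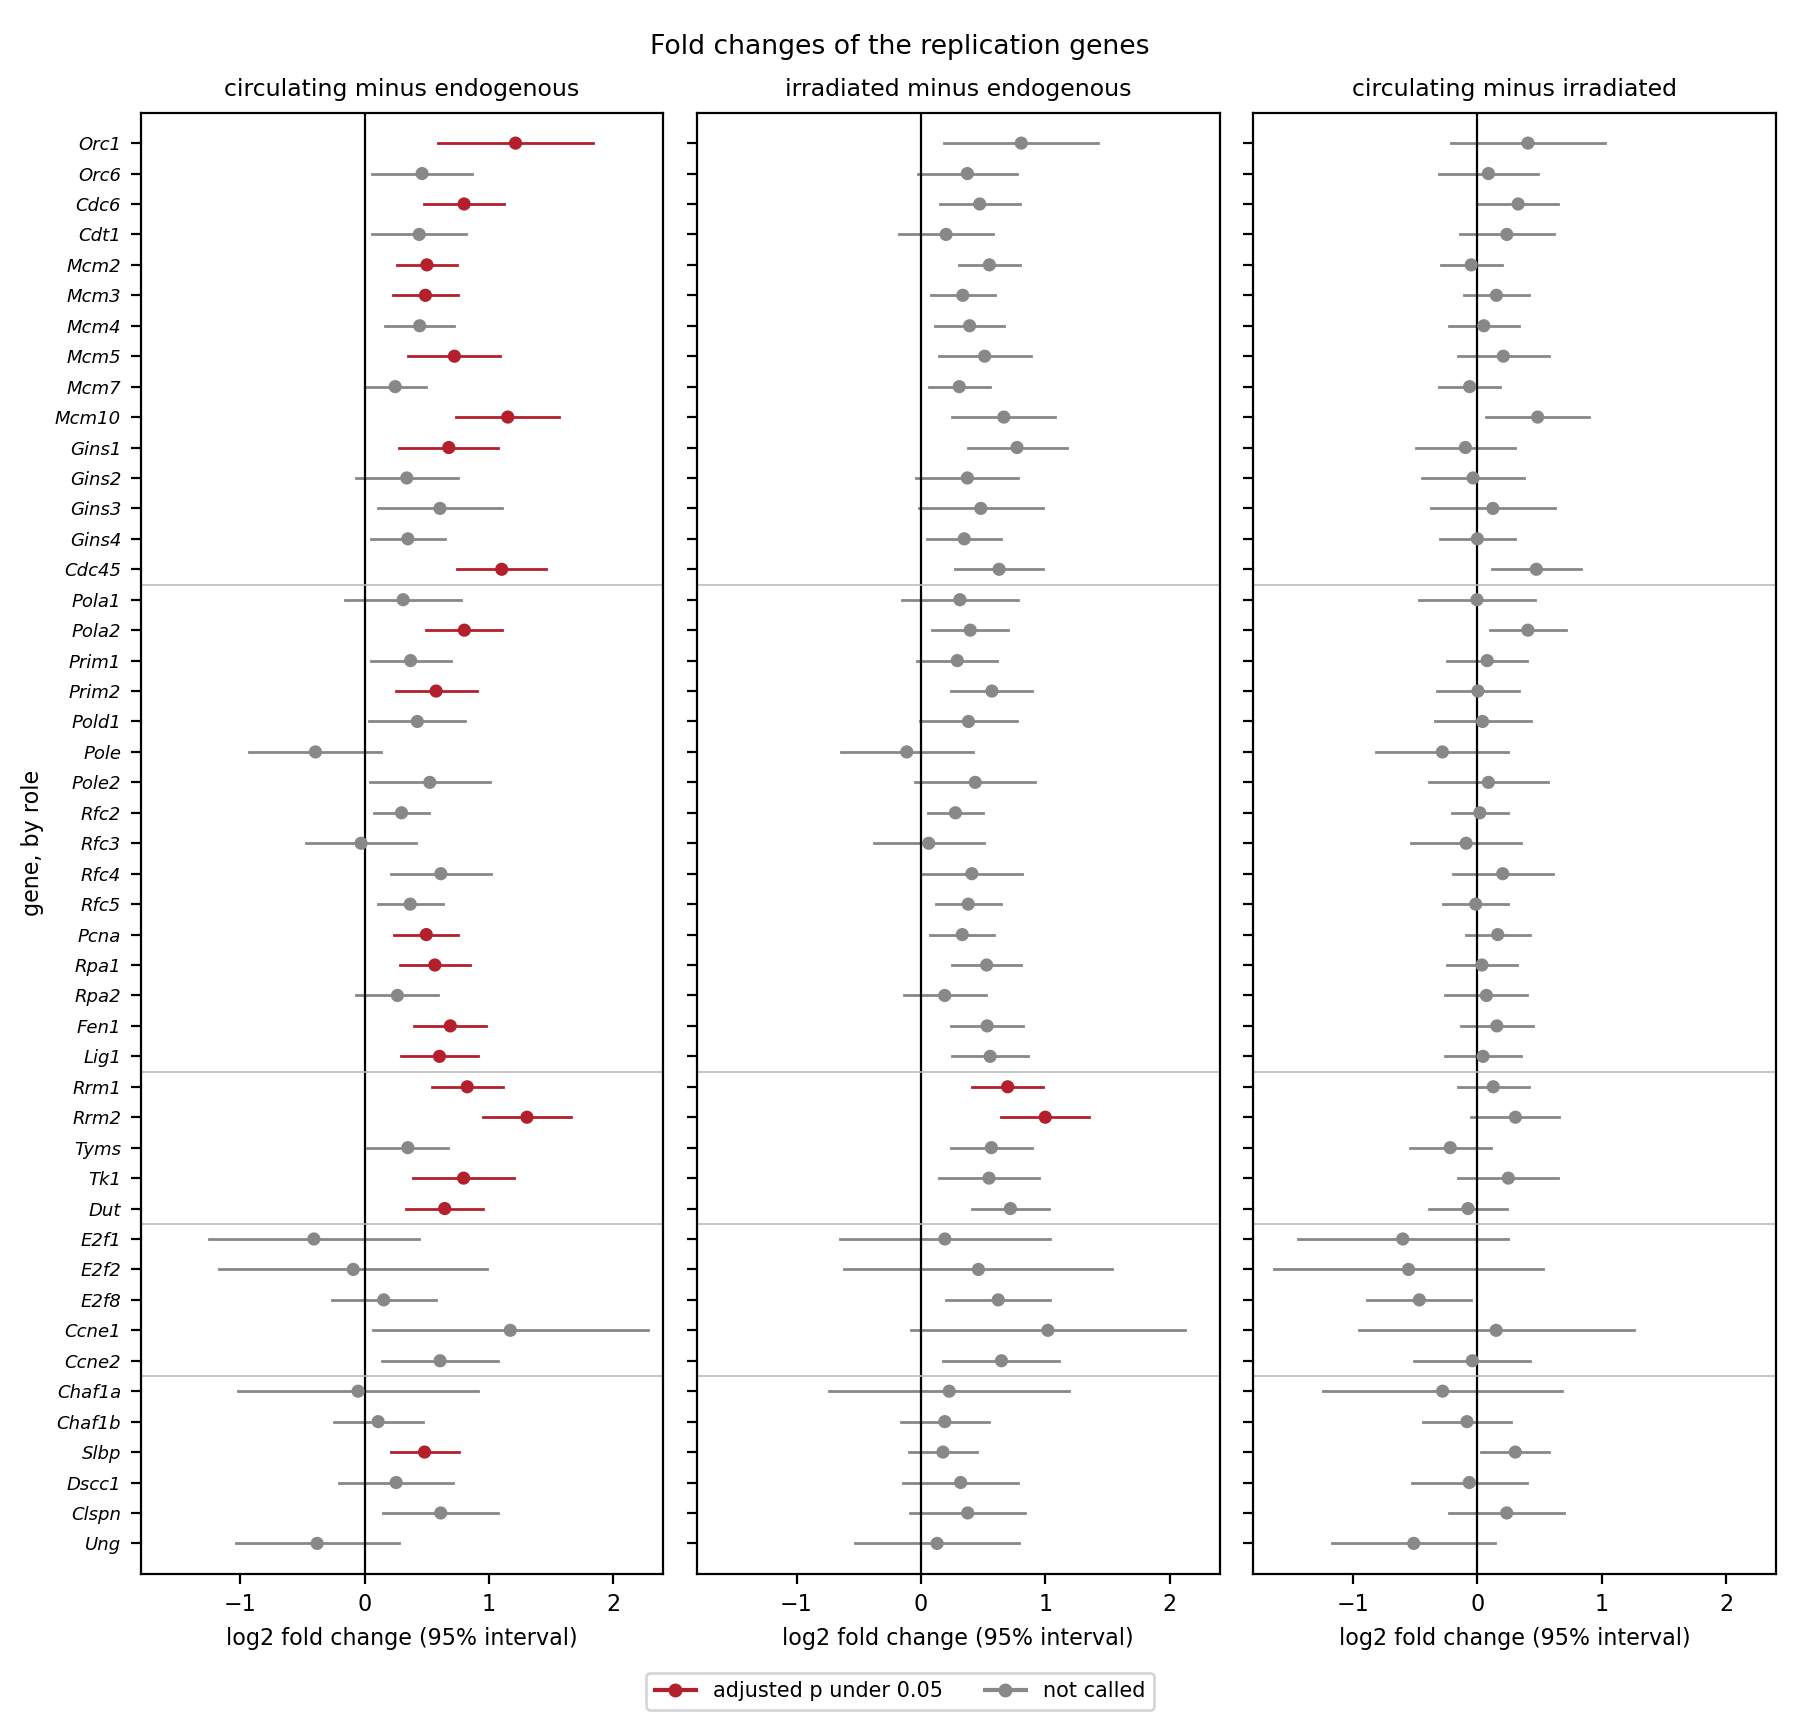
Log2 fold changes of the 47 members with 95% intervals (limma, 3 libraries per group), for circulating minus endogenous, irradiated minus endogenous and circulating minus irradiated. Red marks an adjusted p under 0.05, which 19, 2 and 0 members reached in the main fit shown. With sample weights these counts were 9, 18 and 0, and with 2 groups alone in each fit 5, 13 and 0. Points of the first and second panels lie mostly to the right of 0, and those of the third lie on both sides of it.

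Irradiated LSK cells were compared with the same endogenous libraries. The 2 subunits of ribonucleotide reductase rose and the other 45 members did not pass, while 0.472% of all tested genes rose and 0.131% fell. Rrm2 had a log2 fold change of 1.00 (SE 0.16, limma adjusted p = 0.0215) and Rrm1 of 0.70 (SE 0.13, limma adjusted p = 0.04). The median of the members was 0.40, against -0.01 over all tested genes, and 46 of 47 values were positive, against 49.1% of all tested genes. The groups did not overlap in 33 members, all higher in irradiated cells, a state found in 15.2% of all tested genes. Just outside the threshold were Dut (log2 fold change 0.72, limma adjusted p = 0.0502), Mcm2 (0.55, adjusted p = 0.0555), Gins1 (0.77, adjusted p = 0.0877) and Rpa1 (0.53, adjusted p = 0.0946). Pole was the member with a negative value (-0.11, adjusted p = 0.871).

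The count of calls in this comparison rested on how the spread was estimated. Sample weights gave 18 members, and a fit of these 2 groups alone gave 13. Both subunits of ribonucleotide reductase were lost without irradiated replicate 1 or 3 or any endogenous replicate, and Rrm1 was lost without irradiated replicate 2, while 5, 4 and 6 members were called without circulating replicates 1, 2 and 3. A fit blocked on replicate number again called 2 members, Rrm2 and Dut, and lost Rrm1. In circulating against endogenous cells sample weights gave 9 members, and a fit of those 2 groups alone gave 5. Which of the comparisons with endogenous cells held more called members therefore depended on the setting. The sums of myeloid progenitor, monocyte and T and NK cell markers given above were higher in irradiated cells as well, and their part was not tested. Of the 7 tested T and NK cell genes, however, 5 had negative and 2 positive log2 fold changes in irradiated against endogenous cells (median -0.54). The mast cell sum, at 132.5 to 244 in irradiated libraries, was also above every endogenous library (94.4 to 108.5), and its part was not tested. The B lineage sums of irradiated libraries were at most 111.

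The comparisons with endogenous cells share the endogenous libraries, so their values are set side by side only. Nucleotide supply genes had medians of 0.80 in circulating and 0.70 in irradiated cells relative to endogenous cells. Licensing and helicase genes stood at 0.50 in circulating and 0.47 in irradiated cells, and polymerase and clamp genes at 0.46 in circulating and 0.38 in irradiated cells. Fork and chromatin genes stood at 0.18 in circulating and 0.21 in irradiated cells, and the E2F and cyclin E set at 0.15 in circulating and 0.62 in irradiated cells. In single libraries the median of the E2F and cyclin E set was 0.31, 0.10 and 0.15 above the endogenous mean in circulating replicates 1, 2 and 3, and 0.59, 0.60 and 0.60 in the irradiated replicates. The set has 5 genes, and its median falls on E2f8 in both circulating and irradiated cells. Against endogenous cells 3 of the 5 genes had positive log2 fold changes in circulating and all 5 in irradiated cells.

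**Figure D4:**
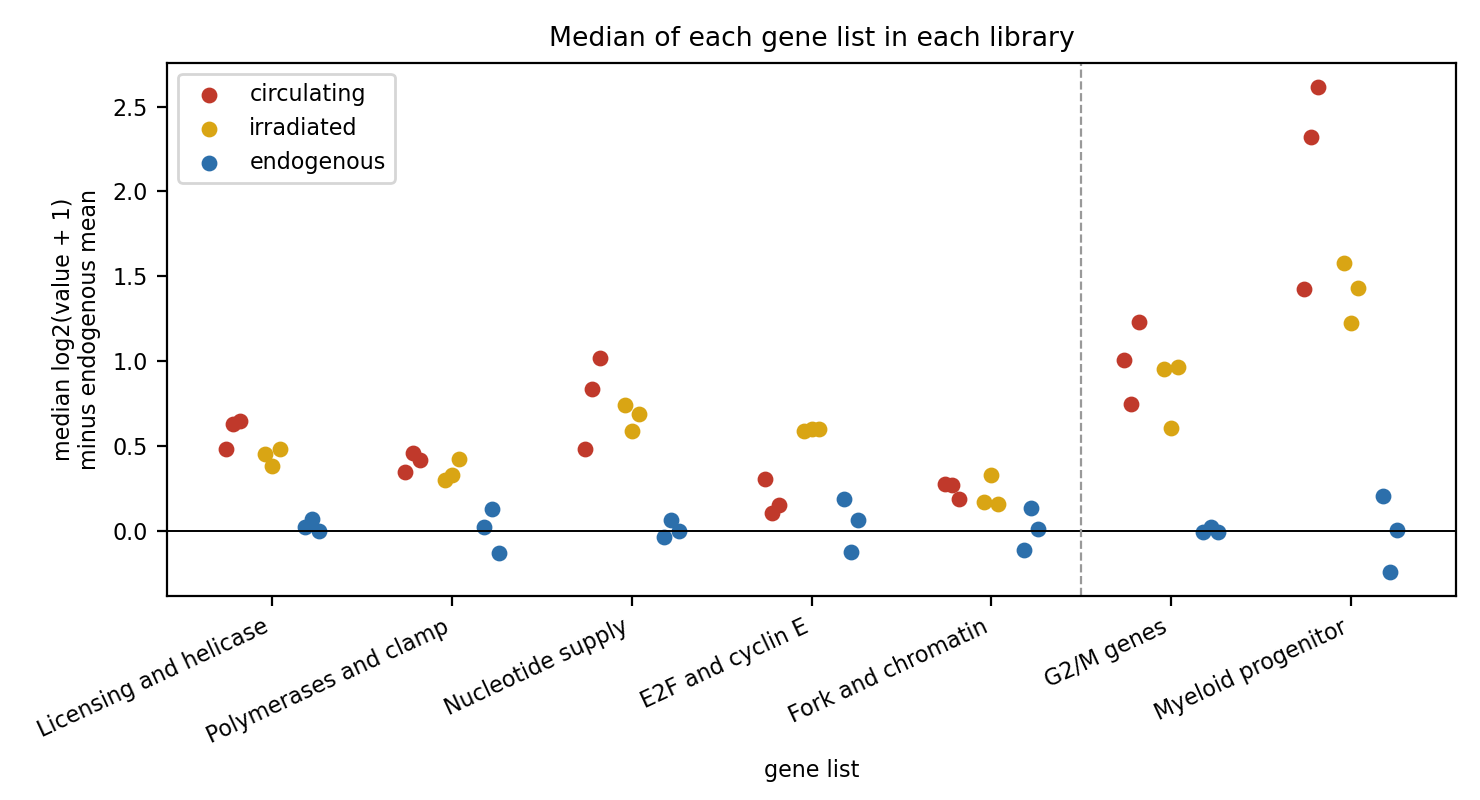
Median over the genes of each list of log2(value + 1) minus the gene's endogenous mean, for every library (points). The 5 sets left of the dashed line are the replication genes by role, and G2/M and myeloid progenitor genes stand beside them. Circulating and irradiated libraries lie above endogenous libraries in licensing, polymerase, nucleotide supply and G2/M genes, and the circulating libraries lie below the irradiated ones in the E2F and cyclin E set.

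Circulating and irradiated LSK cells were then compared directly. Both carry the label C57BL/6, with the doubt about the circulating label given above. With limma 0 of 47 members passed, while 0.0218% of all tested genes rose and 0.00726% fell. An unadjusted p under 0.05 was found for 6 members (against 11.4% of all tested genes), and sample weights and voom weights called 0 as well. The median log2 fold change was 0.05, against -0.02 over all genes, with 28 values positive and 19 negative. The groups did not overlap in 6 members that were higher and 2 that were lower in circulating cells, where 7.46% and 9.26% of all tested genes did so. The 6 genes whose 95% interval left out 0 were Cdc6 (0.01 to 0.65), Mcm10 (0.07 to 0.90), Cdc45 (0.12 to 0.83), Pola2 (0.10 to 0.71) and Slbp (0.03 to 0.58), with higher values in circulating cells, and E2f8 (-0.89 to -0.05), with lower values, and their adjusted p ran from 0.331 to 0.429.

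For Mcm2 the 95% interval of the circulating minus irradiated difference ran from -0.29 to 0.20 log2 units, for Pcna from -0.09 to 0.42, for Rrm1 from -0.16 to 0.41 and for Rrm2 from -0.05 to 0.66. For E2f1, E2f2, Ccne1, Chaf1a, Ung, Orc1 and Pole the interval spanned more than 1 log2 unit, and small differences were not detectable with this spread and number of libraries. The median over the members was 0.11 without circulating replicate 1, -0.02 when values were scaled by library size alone, and -0.06 with circulating replicate 1 as the only circulating library.

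Levels were compared between members only per kilobase, with each value divided by the length of the gene's longest annotated coding transcript. In that unit Pcna was the highest member in every group, at 314 in circulating cells, 279 in irradiated cells and 222 in endogenous cells. Slbp, Mcm7, Mcm3 and Rrm1 followed in endogenous cells at 193, 175, 160 and 124. In circulating cells Rrm2 stood at 214 per kilobase beside Rrm1 at 220, and in endogenous cells at 85.0 beside 124. The lowest members in endogenous cells were E2f2 at 1.03 per kilobase, Ccne1 at 1.86 and E2f1 at 2.99. Order within the groups varied: endogenous replicate 3 held the lowest endogenous value in 23 of 47 members and endogenous replicate 2 the highest in 28, and circulating replicate 1 the lowest circulating value in 24.

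Other genes of the same processes were counted from lists of their own. Of 40 other replication genes, 8 rose and 0 fell in circulating against endogenous cells, with a median log2 fold change of 0.30, 0 passed in irradiated against endogenous cells (limma, median 0.34), and 0 passed between circulating and irradiated cells. An unadjusted p under 0.05 was found for 19, 14 and 3 of them in that order of comparisons, and with sample weights the counts called were 5, 8 and 0. Leaving out each library gave 1 to 10 in the first of these comparisons and 0 to 2 in the second. Among those that rose, Gmnn, which encodes the licensing inhibitor geminin, was 148 ± 16.8 in circulating cells against 81.1 ± 2.69 in endogenous ones (log2 fold change 0.85, limma adjusted p = 0.008). Timeless, of the fork protection complex, was 136 ± 25.1 in circulating cells against 77.8 ± 7.95 in endogenous ones, the histone chaperone gene Asf1b 156 ± 48.1 in circulating cells against 72.0 ± 11.0 in endogenous ones, and Rnaseh2b, a subunit of ribonuclease H2, 115 ± 8.26 in circulating cells against 72.2 ± 10.5 in endogenous ones. Of 27 other nucleotide metabolism genes, 1 rose in circulating against endogenous cells (median 0.33), the folate enzyme gene Mthfd2 at 44.0 ± 7.95 in circulating cells against 22.7 ± 7.11 in endogenous ones, while 5.33% of all tested genes rose. That count was 0 with no added pseudocount, no filter, sample weights, voom weights or these 2 groups alone, and 0 to 7 when leaving out each library.

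Of 30 regulators of the G1/S transition outside the members, 2 rose and 1 fell in circulating against endogenous cells, and the median log2 fold change was 0.12. These shares were near those of all tested genes, of which 5.33% rose and 3.3% fell, and the 3 calls became 0 with sample weights or these 2 groups alone and 1 with voom weights. Ccna2, the S phase cyclin, was 263 ± 77.0 in circulating cells against 153 ± 14.5 in endogenous ones and Mybl2, a transcription factor of cycling cells, 77.4 ± 15.6 in circulating cells against 38.0 ± 12.6 in endogenous ones. Rbl2, which encodes the pocket protein p130 that represses E2F targets in resting cells, fell to 92.7 ± 6.0 in circulating cells, against 149 ± 25.8 in endogenous ones (log2 fold change -0.67, limma adjusted p = 0.0456). Of 24 G2/M genes, 20 rose in circulating and 7 in irradiated cells against endogenous cells, with medians of 1.00 and 0.83. Of all tested genes 5.33% rose in circulating and 0.472% in irradiated cells. Leaving out each library gave 11 to 23 in circulating and 0 to 16 in irradiated cells. Sample weights gave 18 in circulating and 21 in irradiated cells, and fits of 2 groups alone gave 12 and 19. The survivin gene Birc5 averaged 191 ± 27.7 in circulating cells, 177 ± 10.4 in irradiated cells and 79.3 ± 7.80 in endogenous cells. Cdca8, which encodes borealin of the same chromosomal passenger complex, averaged 249.7 ± 42.2 in circulating cells, 225 ± 21.6 in irradiated cells and 103 ± 8.0 in endogenous cells. The mitotic cyclin gene Ccnb2 averaged 285 ± 28.7 in circulating cells, 258 ± 25.4 in irradiated cells and 139.7 ± 5.25 in endogenous cells.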

How the data were processed

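RNA of 9 LSK libraries was measured, made per the labels' protocols with a PicoPure kit, SMART-Seq v4 cDNA and Nextera XT, which gives no strand. Genome mm10 and the tools RSEM 1.3.1, CASAVA and limma are listed, without their roles, per the submitters' processing notes. The authors deposited a normalised signal for 14461 genes in 9 columns, whose values have the form of an estimated count plus 0.5 divided by a scaled library size. Column sums were 913996 to 1134420, and estimated counts were recovered from the smallest value of each column. Without molecular identifiers PCR copies are not separate molecules, so depth speaks to counting error only.

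Genes with a value of at least 1 in at least 3 libraries (13771) were fitted with limma 3.58.1 (R 4.3.3, limma-trend, robust moderation) on log2(value + 1), all 9 libraries in one fit without covariates. The added 1 understates the change of low genes. Benjamini-Hochberg adjustment ran over all tested genes, with calls under 0.05. Symbols and positions came from GENCODE M21 (GRCm38), which names 14405 of the genes. Members, companion lists and naming rule (any member, up to 4 called genes of each other list) were chosen with earlier results of these data known. Same-numbered circulating and irradiated libraries share a label code of unstated meaning, so the replicate number entered only an alternative fit. Other alternatives were the scaling, the added value, the filter, weights and leaving out each library.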

Additional observations from a re-analysis of the deposited data

How the results depend on the processing

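No called member changed direction, and 0 members were called lower, under any of the 21 alternatives. In circulating against endogenous cells, 19 members were called, and 18 to 21 with median-of-ratios size factors, other added values, other filters, voom weights, standard moderation or the replicate block. The count was 9 when scaled by library size alone, 9 with sample weights, 5 with these groups alone, 5 to 21 when leaving out each library, and 2 with circulating replicate 1 as the only circulating library, a setting chosen after seeing the data in which the lone library is assumed to vary like the others. Scaling by library size alone moved the median of all genes to -0.22 in this comparison and to -0.13 in irradiated against endogenous cells, and the member medians, 0.49 and 0.40, to 0.286 and 0.262. The member median was 0.386 with circulating replicate 1 as the only circulating library and 0.413 to 0.552 when leaving out each library, and in irradiated against endogenous cells 0.391 to 0.49. In circulating against irradiated cells it was 0.05, -0.023 with library size alone, -0.062 with circulating replicate 1 as the only circulating library, and 0.006 to 0.112 when leaving out each library, and 0 members were called throughout.

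In irradiated against endogenous cells, 2 members were called, 4 with the stricter filter of 5, 4 with voom weights, 1 with no added pseudocount, 18 with sample weights, 13 with these groups alone, 13 with circulating replicate 1 as the only circulating library, and 0 to 6 when leaving out each library. Standard moderation called 3. Over all genes, 1189, 4 and 83 were called in the order circulating against endogenous, circulating against irradiated and irradiated against endogenous, and leaving out each library gave 257 to 2224, 3 to 137 and 6 to 263. With sample weights these were 494, 4 and 897. The cause of these differences was not tested. The replicate block gave 18 members, 0 and 2 in the same order. Correlations of deviations between same-numbered libraries ran from -0.023 to 0.182. Those of circulating with irradiated libraries were 0.05, 0.031 and 0.182 for the numbers 1, 2 and 3, all positive and the last the highest of any pair, but not all over 0.1, and circulating replicate 1 correlated at 0.106 with irradiated replicate 2. Whether the numbers pair the samples is not shown. E2f1, E2f2, Ccne1, Chaf1a and Ung held the lowest single-library values of the members. Their lowest estimated counts were 39, 21, 71, 158 and 145 in that order, and the part of depth in their spread was not tested.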
